A study of Mus musculus with 12 samples.

Results

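Esrrb, the mouse gene for estrogen-related receptor beta (ENSMUSG00000021255), lies on the plus strand of chromosome 12 at 86361117 to 86521628 of GRCm38, and the open chromatin within and 20 kb to either side of it is described here. All peaks that touched the window from 86341117 to 86541628 were taken, which gave 27 of the 91354 peaks of the BGI peak set and 29 of the 87027 peaks of the Illumina peak set. Chromatin accessibility had been profiled by Omni-ATAC-seq, in which the transposase Tn5 cuts accessible DNA and tags it for sequencing. MEFs, fibroblasts of mouse embryos, had been sorted for Thy1+ and mESCs, embryonic stem cells of the mouse, for Thy1-/Ssea1+/Epcam+; both had a C57/Bl6 background, and no treatment is named. Each cell type had 3 biological replicates with 1 library each (MEF libraries 1, 2 and 4; mESC libraries 1, 3 and 5, the order in which values are given below), and every library was read on BGI's DNBSEQ-G400 and on Illumina's HiSeqX10. The 2 platforms therefore read the same 6 libraries, and a result seen on both is not an independent repeat. Outside the fits with the library as a block, p-values measure the spread between the 3 libraries of a type. The blocked fits take out the differences between libraries, and their p-values measure the remaining spread of the platform difference.

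ESRRB is an orphan nuclear receptor, a transcription factor without a known natural ligand, that binds DNA as a monomer at the estrogen-related receptor element. In naive mESCs it works together with OCT4, SOX2 and NANOG to sustain self-renewal, and it is one of the genes that the repressor TCF7L1 holds down until Wnt signalling or GSK3 inhibition relieves it. Adding it to reprogramming cocktails helps fibroblasts to become pluripotent. The gene has several annotated transcription start sites (TSSs), so an open promoter need not be the same one in different cells.

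Reads counted in peaks ranged from 15860985 to 16911482 per library in mESCs and from 20085886 to 21662775 in MEFs on BGI, and from 15996202 to 16958488 and 20127546 to 21441767 on Illumina. The sorted identities were checked at the promoters of marker genes. Of 5 mESC markers, Epcam, Pou5f1, Nanog and Zfp42 were higher in mESCs on both platforms (edgeR) and Fut4, whose enzyme can make the Ssea1 epitope, was lower. Which enzyme made the epitope in these cells was not tested. Of 5 MEF markers, Thy1, Col1a1, Col1a2 and Twist1 were lower in mESCs, while Pdgfra passed on neither platform. Among the markers of other embryonic cells, Otx2, Gata4, Sox17 and Eomes were higher in mESCs on both platforms, Fgf5 and Gata6 were lower on both, Pou3f1 was lower on Illumina, Elf5 passed on neither and Cdx2 had no promoter peak. No Esrrb result here was tested against these markers.

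Peaks are named by the distance of their centre from the first annotated Esrrb TSS, so that the +140.8 kb peak lies 140.8 kb into the gene. Of the 27 BGI peaks, 4 lay within 1 kb of an annotated TSS and are called promoter peaks, 19 were intronic, 3 overlapped exons away from a TSS and 1 lay downstream of the gene. The Illumina set had 5 promoter, 19 intronic, 3 exonic and 2 downstream peaks. Each peak is 502 bp wide, and 26 peaks of each set covered the same place on both platforms by at least 50% of their width. The unmatched ones were the +141.6 kb peak of the BGI set and the +61.5, +155.6 and +162.2 kb peaks of the Illumina set.

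Annotated TSSs stand at 4 places in the gene. The first is at 86361117 and the second at 86421644 and 86421883, 60.5 kb downstream, where 3 of the 5 annotated coding transcripts start. The third, at 86470117, starts a shorter coding transcript, and the fourth, at 86504409, starts a processed transcript without a coding sequence. The 250 bases before the second and the third start are shown to compare a promoter that was open in both cell types with one that was open in mESCs, with CG dinucleotides in capitals (plus strand, 5′ to 3′, GRCm38):
+60.5 kb, chr12:86421394-86421643: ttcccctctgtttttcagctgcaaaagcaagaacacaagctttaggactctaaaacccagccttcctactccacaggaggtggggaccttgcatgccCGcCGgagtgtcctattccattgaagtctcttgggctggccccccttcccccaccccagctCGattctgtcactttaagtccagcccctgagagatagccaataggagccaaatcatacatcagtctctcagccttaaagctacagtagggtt
+109.0 kb, chr12:86469867-86470116: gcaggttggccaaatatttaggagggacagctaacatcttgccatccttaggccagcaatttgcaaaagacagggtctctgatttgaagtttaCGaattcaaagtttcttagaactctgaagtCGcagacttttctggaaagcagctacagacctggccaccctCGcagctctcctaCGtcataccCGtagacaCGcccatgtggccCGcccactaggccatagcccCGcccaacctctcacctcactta
There were 3 CG dinucleotides before the shared start and 8 before the internal one, against a median of 6 over 32851 promoters of the RefSeq GRCm38.p6 table. Over the whole peaks the order was the other way, with 35 in the +60.5 kb and 28 in the +109.0 kb peak on BGI. On Illumina the same 2 peaks held 41 and 27.

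The next 4 stretches are the central 300 bases of the peaks with the most reads in mESCs among those that hold a letter match to the binding element of ESRRB itself or to the octamer bound by OCT4. Capitals mark the octamer ATGCAAAT, here on the minus strand, in the +110.0 kb peak, the element AAGGTCA in the +137.8 kb peak, and the extended element TCAAGGTCA in the +140.8 and +143.3 kb peaks:
+110.0 kb, chr12:86470968-86471267: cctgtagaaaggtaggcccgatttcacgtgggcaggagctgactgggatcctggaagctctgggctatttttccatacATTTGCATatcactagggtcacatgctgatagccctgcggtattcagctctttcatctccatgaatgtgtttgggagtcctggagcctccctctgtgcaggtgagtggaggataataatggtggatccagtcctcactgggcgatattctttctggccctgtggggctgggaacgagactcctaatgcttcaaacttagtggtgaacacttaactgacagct
+137.8 kb, chr12:86498741-86499040: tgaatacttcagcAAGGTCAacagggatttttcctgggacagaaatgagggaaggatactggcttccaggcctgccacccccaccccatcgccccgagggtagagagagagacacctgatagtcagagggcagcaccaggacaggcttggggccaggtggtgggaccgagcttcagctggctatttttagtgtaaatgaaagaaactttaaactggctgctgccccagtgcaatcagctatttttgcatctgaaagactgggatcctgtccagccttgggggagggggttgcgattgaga
+140.8 kb, chr12:86501786-86502085: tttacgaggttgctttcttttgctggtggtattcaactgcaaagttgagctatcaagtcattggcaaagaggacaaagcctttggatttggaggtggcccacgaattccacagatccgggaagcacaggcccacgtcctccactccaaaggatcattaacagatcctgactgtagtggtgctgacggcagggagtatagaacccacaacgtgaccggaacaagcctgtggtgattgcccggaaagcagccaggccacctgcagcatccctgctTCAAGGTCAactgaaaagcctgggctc
+143.3 kb, chr12:86504303-86504602: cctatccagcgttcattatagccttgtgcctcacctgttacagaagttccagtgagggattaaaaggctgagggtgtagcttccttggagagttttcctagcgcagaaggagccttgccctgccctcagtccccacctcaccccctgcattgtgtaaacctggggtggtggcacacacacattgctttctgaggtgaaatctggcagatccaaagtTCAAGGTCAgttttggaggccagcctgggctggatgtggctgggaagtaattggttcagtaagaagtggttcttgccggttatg
The first 3 of these lie outside annotated exons, and the last spans the first exon of the processed transcript. They are the strongest openings of the locus in mESCs, as follows.

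Most of the peaks of the Esrrb window had more reads in mESCs, and only a few were open in MEFs. In the BGI data 24 of 27 peaks were higher in mESCs and none was lower (edgeR, adjusted p under 0.05), where 40.9% of all peaks tested were higher and 43.2% lower. Illumina gave 26 of 29 higher and none lower, against 42.1% and 42.4% of all peaks. A peak set holds the peaks of either cell type's list of reproducible peaks, and 21 of the 27 and 23 of the 29 members came in through the mESC list alone, which selects for a higher level in mESCs. Their calls, counts, sums, shares and single fold changes are therefore descriptions, and no p is given for any of them between the cell types. All 27 and all 29 peaks passed the filter on low counts, and DESeq2 gave the same 24 and 26 with none lower. At an unadjusted p under 0.05 there was also no lower peak on either platform. In such bulk libraries more open cells and more cuts per cell cannot be told apart. The median log2 fold change of the members, mESC over MEF, was 3.85 on BGI and 3.91 on Illumina, beside -0.08 and -0.03 over all peaks tested. A log2 fold change of at least 4 was reached by 12 of 27 members on BGI, against 7.09% of all peaks, and by 12 of 29 on Illumina, against 7.99%.

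**Figure D1:**
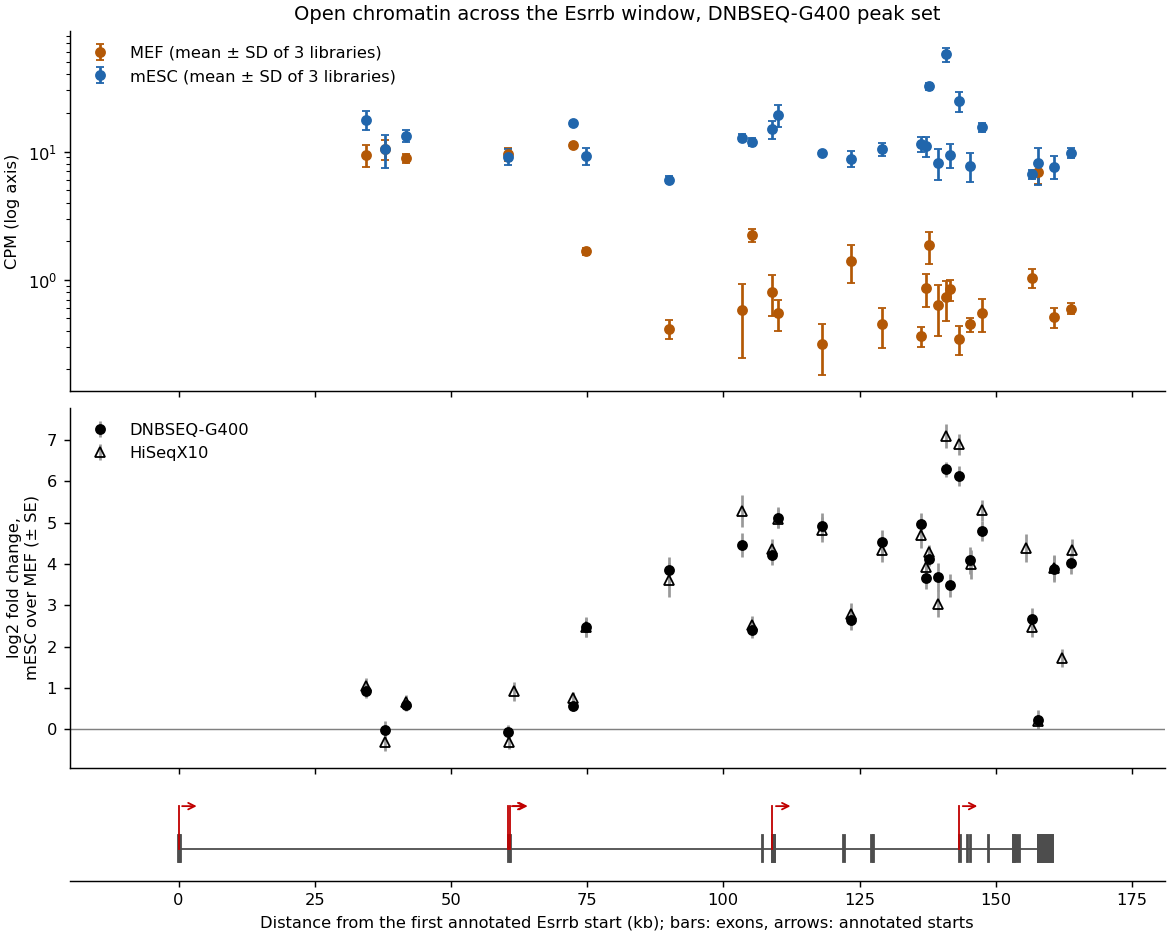
Peaks of the Esrrb window by distance from the first annotated TSS (kb). Top, CPM in each cell type on BGI's DNBSEQ-G400 (log axis, mean ± SD of 3 libraries); middle, log2 fold change of mESC over MEF on both platforms (± SE); bottom, exons and annotated starts. The peaks before the +74.7 kb peak lie between 8.86 and 17.7 CPM in both cell types, and from there on the MEF means are at most 2.23 CPM at all but the +157.8 kb peak.

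Peaks of both kinds were unevenly placed along the window. CPM, the reads of a peak per megaread in all peaks of the library after TMM scaling, is the unit throughout. Up to the +72.4 kb peak, 5 BGI peaks were open in both cell types, with means of 8.86 to 11.2 CPM in MEFs and 9.12 to 17.7 CPM in mESCs. The +74.7 kb peak is the first on the mESC list alone. From there to the end 21 of 22 peaks, the 21 of that list, were higher in mESCs, with a median log2 fold change of 4.05. The other was the +157.8 kb peak over the last exon, at 7.61, 7.72 and 5.35 CPM in MEFs and 9.18, 5.16 and 9.99 CPM in mESCs, so that the groups overlapped (log2 fold change 0.23 ± 0.23 SE, edgeR adjusted p = 0.36). Its Illumina values were 7.22, 7.72 and 6.64 CPM in MEFs and 8.25, 8.32 and 8.10 CPM in mESCs, which did not overlap but did not pass either (0.19 ± 0.17, edgeR adjusted p = 0.29). All mESC libraries lay above all MEF libraries at 24 of the 27 BGI peaks, as they did at 41.7% of all peaks, and at 27 of the 29 Illumina peaks, against 42.8%.

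The authors made a list of reproducible peaks for each cell type on each platform. On BGI 6 of the 27 members were on both the MEF and the mESC list, 21 were on the mESC list alone and none was on the MEF list alone. Over the whole BGI set these shares were 30.8%, 36.4% and 32.8%. On Illumina 6 of 29 were on both lists and 23 on the mESC list alone, the +61.5 kb peak among them, against 31.3% and 37.6% of the whole set, with 31.1% on the MEF list alone. Summed over the 6 peaks on both lists, BGI accessibility was 59.2, 59.3 and 50.5 CPM in the MEF libraries and 79.3, 70.1 and 76.8 CPM in the mESC libraries. Summed over the 21 peaks of the mESC list alone, it was 16.0, 17.2 and 18.3 CPM in MEFs and 309.6, 324.5 and 281.2 CPM in mESCs. These sums follow from how the lists were made and carry no test.

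The promoters of Esrrb differed from each other. At the first TSS no peak was retained in either set, and the nearest peak lay 34135 bp away on BGI. Summits called there in single samples, within 1 kb, were weak, with a highest −log10 p of 0 to 4.63 in the MEF samples and 5.11 to 11.99 in the mESC samples. At the second TSS, chr12:86421371-86421872, the +60.5 kb peak had 10.4, 8.28 and 9.96 CPM in MEFs and 8.87, 7.97 and 10.5 CPM in mESCs on BGI. The groups overlapped (log2 fold change -0.07 ± 0.17 SE, edgeR adjusted p = 0.72), and at the down-sampled depths the sign turned, to 0.07. Illumina read 12.5, 10.1 and 11.0 CPM in MEFs and 10.3, 8.91 and 7.92 CPM in mESCs at chr12:86421443-86421944 (-0.31 ± 0.16 SE; adjusted p by edgeR, 0.082). A second peak beside it in the Illumina set only, the +61.5 kb peak at chr12:86422359-86422860, had 3.37 ± 0.32 CPM in MEFs and 6.36 ± 1.03 CPM in mESCs (SD, n = 3; log2 fold change 0.92 ± 0.22 SE) and is on the mESC list alone.

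At the third TSS peaks were called in the mESC samples and in no MEF sample. There the +109.0 kb peak (chr12:86469852-86470353) measured 0.62, 1.12 and 0.65 CPM in MEFs and 12.8, 17.5 and 14.7 CPM in mESCs on BGI. Its log2 fold change was 4.23 ± 0.25 SE. The +110.0 kb peak (chr12:86470867-86471368), 750 bp beyond the same start and holding the octamer printed above, measured 0.38, 0.66 and 0.60 CPM in MEFs and 18.5, 23.2 and 16.0 CPM in mESCs (log2 fold change 5.12 ± 0.25 SE). No summit was called within 1 kb of this start in any of the 6 MEF samples, whereas the highest −log10 p there was 79.2 to 125 in the mESC samples. Illumina gave log2 fold changes of 4.37 ± 0.23 and 5.09 ± 0.23 SE for these 2 peaks.

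The fourth TSS, that of the processed transcript, carried the promoter peak with the most reads in mESCs. This +143.3 kb peak (chr12:86504202-86504703) measured 0.43, 0.26 and 0.35 CPM in MEFs and 23.0, 29.6 and 21.4 CPM in mESCs on BGI, with 5 to 9 reads in each MEF library. On Illumina it measured 0.29, 0.15 and 0.20 CPM in MEFs and 25.7, 30.4 and 22.1 CPM in mESCs. No group overlapped, and no MEF sample had a summit called within 1 kb of the start. Among the promoter peaks of protein-coding genes, 1 per gene, 14 of 15125 had a larger log2 fold change on BGI and 5 of 15181 on Illumina, which is a description of its place and not a test. RefSeq also predicts starts at 86468165, 86483151 and 86488207, and no member lay within 1 kb of these: the nearest was 1122 bp away.

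**Figure D2:**
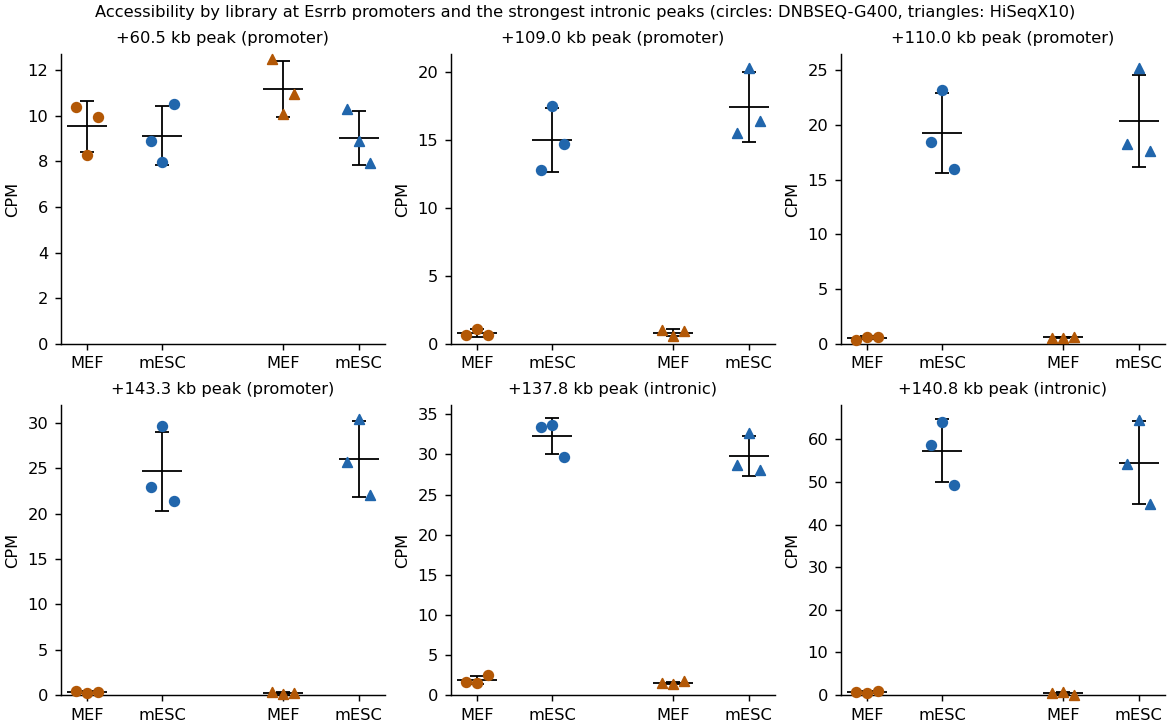
CPM of each library at the 4 promoter peaks found on both platforms and at the 2 strongest intronic peaks (black bars, mean ± SD of 3 libraries; circles, DNBSEQ-G400; triangles, HiSeqX10). The +60.5 kb promoter is at 7.92 to 12.5 CPM in all 12 samples, while each of the other peaks is at most 2.45 CPM in MEFs and at least 12.8 CPM in mESCs.

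Counted as a share of the promoter reads of the locus, the second TSS held 87.9%, 80.2% and 86.1% in the BGI MEF libraries and 14.0%, 10.2% and 16.8% in the mESC libraries. The share at the third TSS was 12.2 ± 4.57% in MEFs and 50.2 ± 1.57% in mESCs (SD, n = 3), and at the fourth 3.05 ± 0.58% and 36.1 ± 1.87%. In each case the libraries of the cell types did not overlap. Illumina had 89.9 ± 1.55% in MEFs and 19.6 ± 1.78% in mESCs at the second TSS. That share sums the +60.5 and +61.5 kb peaks, whereas the BGI share is that of the +60.5 kb peak. The +61.5 kb peak and the peaks at the third TSS and at the fourth are on the mESC lists alone, so these shares carry no test. In CPM on BGI, the second TSS had means of 9.54 in MEFs and 9.12 in mESCs, and the peaks at the third TSS together 1.35 and 34.3.

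The strongest peaks of the locus in mESCs were intronic. The +140.8 kb peak (chr12:86501685-86502186), in the intron 2223 bp before the fourth TSS, had 58.7, 64.0 and 49.4 CPM in the mESC libraries on BGI against 0.67, 0.51 and 1.001 CPM in MEFs. That is 825 to 1092 reads against 10 to 20, or 6.29 ± 0.18 SE in log2. On Illumina it measured 54.2, 64.5 and 44.9 CPM against 0.48, 0.70 and 0, with 1 MEF library at 0 reads (7.09 ± 0.29 SE in log2). That log2 fold change was 6.48 without MEF library 4, the one at 0, and 7.73 without MEF library 2. It was the highest of all members in each of the 6 mESC samples, where its summit had a −log10 p of 214.0 to 385 and a 45.9- to 72.6-fold enrichment over the genome-wide background. No MEF sample had a summit in it. It took 15.03 ± 1.22% of the reads of the window in mESCs and 1.005 ± 0.41% in MEFs on BGI (SD, n = 3), which describes the member that was highest in mESCs and carries no test.

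Next in level was the +137.8 kb peak (chr12:86498640-86499141), in the same intron, with 33.4, 33.7 and 29.7 CPM in mESCs and 1.63, 1.48 and 2.45 CPM in MEFs on BGI. Its log2 fold change was 4.12 ± 0.17 SE on BGI and 4.30 ± 0.16 SE on Illumina. In mESCs the +140.8 kb peak lay above the +137.8 kb peak in every library, and the latter above the +143.3 kb promoter in every library, so these 3 kept their order in each of the libraries. The +147.4 kb peak (chr12:86508268-86508769) had 0.55 ± 0.16 CPM in MEFs and 15.4 ± 1.19 CPM in mESCs (SD, n = 3; log2 fold change 4.80 ± 0.24 SE), and it holds an octamer match too. Within the 21 BGI peaks of the mESC list alone, mean levels in mESCs ran from 6.04 CPM at the +90.0 kb peak to 57.4 CPM, and the largest difference between 2 mESC libraries at 1 peak was 1.69-fold.

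A group of early intronic peaks was open in both cell types, with small differences. The +34.4 kb peak (chr12:86395252-86395753) had 9.58, 11.1 and 7.46 CPM in MEFs and 19.95, 18.9 and 14.4 CPM in mESCs (0.92 ± 0.17 SE, edgeR adjusted p = 6.65e-05). Smaller rises were measured at the +41.8 kb peak (0.59 ± 0.15 SE, edgeR adjusted p = 0.00175) and the +72.4 kb peak (0.57 ± 0.13 SE, edgeR adjusted p = 0.000573), and both passed on Illumina as well. Between the +34.4 and +41.8 kb peaks, the +37.9 kb peak (chr12:86398740-86399241) had 11.3, 11.9 and 8.31 CPM in MEFs and 13.5, 7.39 and 10.5 CPM in mESCs, and its log2 fold change was -0.005 ± 0.20 SE (edgeR adjusted p = 0.98). Illumina gave -0.30 ± 0.23 SE there (adjusted p by edgeR, 0.24). Its 2 groups overlapped on both platforms, and it was the member that varied most between the mESC libraries on Illumina, by 2.36-fold. None of these 4 peaks passed a test against a log2 fold change of 1.

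The named peaks outside the fixed rule (the +74.7, +90.0 and +157.8 kb peaks and those found on 1 platform) were picked after their values were seen. The other mESC-open peaks not described singly had log2 fold changes of 2.41 to 4.95 on BGI. The peak lowest in that range was the +105.3 kb peak, with 2.54, 2.10 and 2.05 CPM in MEFs and 12.5, 12.4 and 10.9 CPM in mESCs.

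Over all peaks of the window, summed accessibility was 75.3, 76.5 and 68.8 CPM in MEFs and 388.9, 394.6 and 358.0 CPM in mESCs on BGI. The ratio of the means was 5.18 (log2 difference 2.37). Illumina gave 77.7, 78.7 and 72.4 CPM and 395.9, 402.6 and 359.0 CPM, a ratio of 5.06 (log2 difference 2.34). The groups did not overlap on either platform, and most of each mESC sum, 305 of 381 CPM on average on BGI, lay in the peaks of the mESC list alone, so no test is given.

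The contrast of promoter peaks with the rest of the window gave no stable difference. On BGI promoter peaks went from 11.2 ± 0.80 to 68.0 ± 8.93 CPM and the remainder from 62.3 ± 4.60 to 312.5 ± 15.5 CPM (SD, n = 3), which are ratios of 6.05 and 5.02. The promoter share of the window was 15.3 ± 1.69% in MEFs and 17.9 ± 1.84% in mESCs, a difference of 2.52 percentage points. On Illumina it was 21.2 ± 1.89% and 20.5 ± 2.10%, a difference of -0.71. With this 1 kb promoter window the libraries overlapped on both platforms. The difference depended on the promoter window: at 500 bp it was -1.77 on BGI and -5.20 on Illumina, and at 2 kb it was 5.29 and 0.46. On BGI the libraries of the cell types overlapped at 500 bp and did not at 2 kb. These shares include peaks of the mESC list alone and carry no test.

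Summits called in single samples, before any reproducibility filter, were counted too. MEF samples had 19 to 26 summits in the window and mESC samples 125 to 147. Averaged over platforms there were 21.3 ± 2.02 in MEFs and 134 ± 2.84 in mESCs (SD, n = 3 libraries, exact two-sided permutation p = 0.1, the smallest that 3 against 3 allows). Of those with a −log10 p of at least 10 there were 9.0 ± 0.50 and 67.5 ± 5.57. Several summits can share a called interval, and counted as distinct intervals there were 18.8 ± 2.31 in MEFs and 61.5 ± 5.77 in mESCs, a difference of 42.7 in place of 112. Over the whole genome, 216566 to 230117 summits were called in the MEF samples and 229198 to 276268 in the mESC samples. The window held 0.00842% to 0.0113% of these in MEF samples and 0.0509% to 0.0576% in mESC samples. The mESC samples had been down-sampled to a lower depth than the MEF samples, and the effect of depth on these counts was not tested. The strongest summit of the window was at the +140.8 kb peak in all 6 mESC samples. In the MEF samples it was at the +37.9, +41.8 or +72.4 kb peak.

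**Figure D3:**
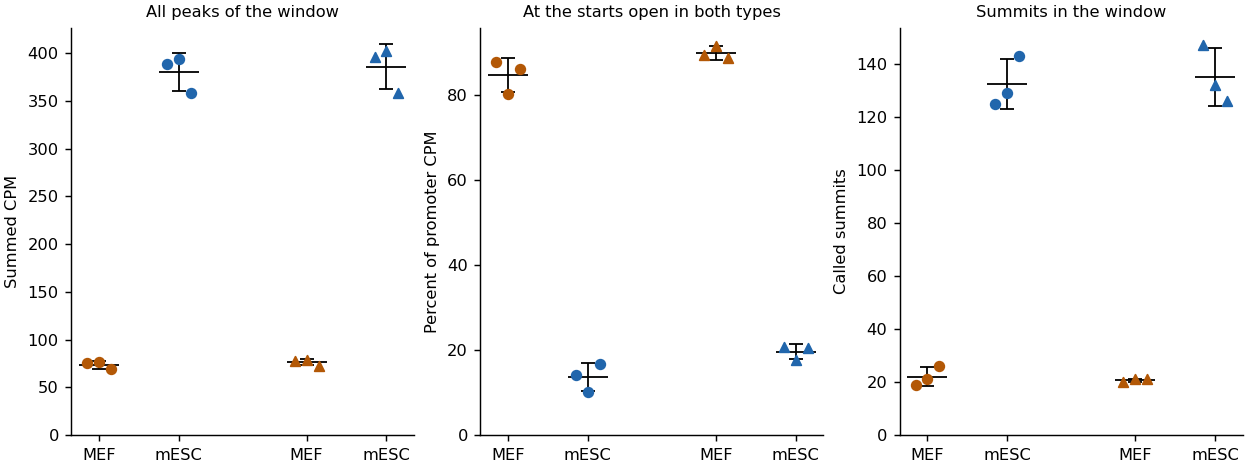
Values of single libraries for the Esrrb window on both platforms (left pair of columns, DNBSEQ-G400; right pair, HiSeqX10; black bars, mean ± SD of 3 libraries): summed CPM, percent of promoter CPM at the second TSS, and called summits. MEFs lie at 68.8 to 78.7 summed CPM and mESCs at 358.0 to 402.6, and no panel has overlapping groups.

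As a description, 47 of 1260 protein-coding genes with windows of 150 to 250 kb had more BGI peaks than the 27 of Esrrb (median 8), and 16 had more peaks called higher in mESCs than its 24 (median 2). Neither flanking promoter was called higher. The promoter peak of Gpatch2l, the nearest protein-coding gene upstream with one, had a log2 fold change of -0.20 ± 0.10 SE on BGI (edgeR adjusted p = 0.0737) and -0.24 ± 0.09 SE on Illumina (edgeR adjusted p = 0.0180). Vash1, downstream, had -0.36 ± 0.16 and -0.31 ± 0.12 SE (edgeR adjusted p = 0.0435 and 0.0259).

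The 5 protein-coding genes whose promoter peaks were most like the +143.3 kb peak, by Euclidean distance of log2 CPM over the 6 BGI samples, were Dppa5a (0.29), Triml2 (0.71), Trap1a (0.74), Gm4756 (0.75) and Mta3 (1.02), against a median distance of 10.1 over 15124 genes. Dppa5a, which encodes an RNA-binding protein of pluripotent cells, had means of 0.40 CPM in MEFs and 25.4 CPM in mESCs, beside 0.35 and 24.6 CPM at the Esrrb peak. The log2 fold changes of the 5 ran from 5.48 to 6.36.

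The letters of the central 300 bases were searched on both strands for motifs of factors tied to Esrrb. The element AAGGTCA was found in 5 of 27 BGI members and in 5.92% of all BGI peaks, and the extended TCAAGGTCA, which contains it, in 2 of 27 and in 0.88%. The octamer ATGCAAAT was in 3 members (+110.0, +118.1 and +147.4 kb) and in 2.29% of all peaks, and the SOX motif CATTGT in 6 members and 13.0%. The E-box CACCTG was in 15 of 27 members and 20.1% of all peaks. Among the 13931 BGI peaks over 8-fold higher in mESCs these motifs were more frequent than among all peaks: AAGGTCA was in 13.8%, TCAAGGTCA in 2.77%, the octamer in 5.68%, CATTGT in 20.05% and CACCTG in 34.4%, beside 18.5%, 7.41%, 11.1%, 22.2% and 55.6% of the 27 members. On Illumina AAGGTCA was in 4 of 29 members, 13.8%, and in 13.5% of the peaks over 8-fold higher, and CACCTG in 48.3% and 34.5%. ATCAAAG, the TCF/LEF motif, was in none of the members and in 3.36% of all peaks. Further counts were 3 for the KLF motif GGGTGTGG (5.17% of all peaks), 3 for the CTCF core AGGGGGC (10.7%) and 6 for the AP-1 motif TGANTCA (21.4%). A letter match is not a binding site, and peaks of the same locus share local base composition. Median GC content was 51.8% over the members and 51.0% over all BGI peaks.

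Sequencing platform made little difference to these calls. All 26 matched members had the same call on both, 23 higher in mESCs and 3 not passing. No member's mESC against MEF change differed between platforms (edgeR interaction, 0 of 27; 0% of all 91354 peaks), with 0 of 27 at an unadjusted p under 0.05, where 2.61% of all peaks were. With the library as a block there were 3 of 27 at an unadjusted p under 0.05, where 13.2% of all peaks were, and again none after adjustment, against 0.386% of all peaks. The largest interaction was at the +139.5 kb peak, 0.76 ± 0.54 SE in log2.

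Within mESCs, on 30 peaks of the set made from both platforms, none differed between BGI and Illumina when the libraries were treated as unpaired (edgeR; 3.23% of all peaks did), and none did at an unadjusted p under 0.05 (13.1% of all peaks) or with DESeq2 (3.18%). Because both platforms read the same library, the fit with the library as a block applies: it called 3 of 30, where 21.3% of all peaks were called. The +37.9 kb peak was higher on BGI (log2 BGI over Illumina 0.29, edgeR adjusted p = 0.0290), and the +109.0 kb promoter (-0.23, edgeR adjusted p = 0.0196) and the +163.9 kb peak (-0.26, edgeR adjusted p = 0.0370) were lower on BGI. The first was higher on BGI in 3 of 3 libraries, the second in 0 of 3 and the last in 1 of 3. With a GC offset added to the block the +37.9 kb peak no longer passed (0.20, edgeR adjusted p = 0.216), the +109.0 and +163.9 kb peaks still did, and the +110.0 kb (-0.22, edgeR adjusted p = 0.0278) and +143.3 kb (-0.23, edgeR adjusted p = 0.00492) promoters were called lower on BGI as well. These 4 of 30 stand beside 10.6% of all peaks called in that fit. DESeq2 with the block called none of the 30 and 5.3% of all peaks. In MEFs none of 6 peaks differed without the block (4.06% of all peaks) or with it (29.2%), with 0 and 2 at an unadjusted p under 0.05 (15.2% and 40.6% of all peaks) and none by DESeq2 (9.56%). The largest platform difference at a mESC peak was 0.29 in log2 with the block, 0.33 in size by DESeq2 with the block and -0.38 with the GC offset, beside a median mESC against MEF difference of 3.85.

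**Figure D4:**
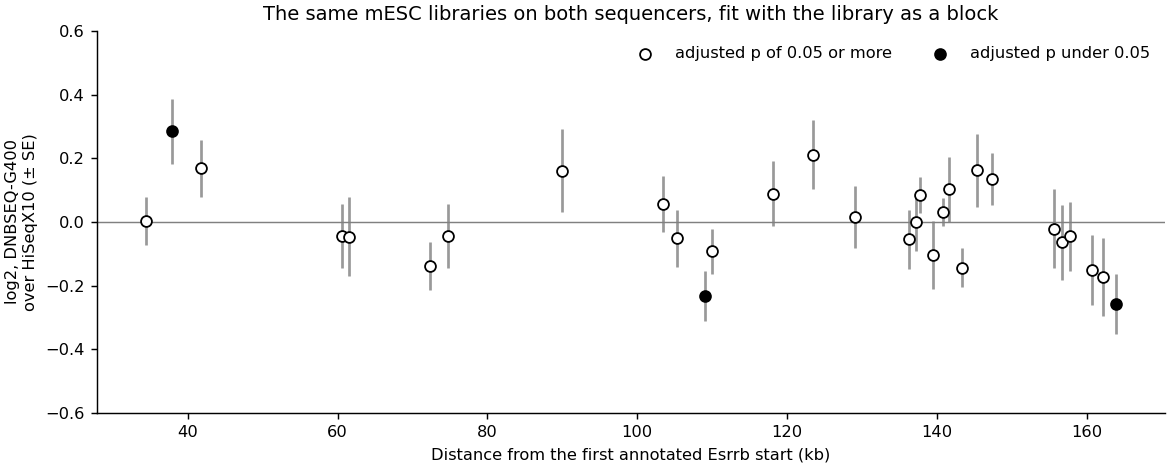
Log2 ratio of DNBSEQ-G400 to HiSeqX10 accessibility (± SE) at the 30 mESC peaks of the Esrrb window, by distance from the first TSS (kb), from the fit with the library as a block. Filled points have an edgeR adjusted p under 0.05; all points lie between -0.26 and 0.29.

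Promoters of 23 genes tied to Esrrb were read the same way, with the peak of the most reads within 1 kb of a TSS for each gene. All 23 had a promoter peak. Whether it came in through 1 cell type's list alone is not given here, nor for the marker promoters above. Such a list selects for a higher level in that type, so calls at peaks of 1 list alone are descriptions. On BGI 13 were higher in mESCs and 6 lower, against 22.1% and 44.1% of 15125 promoter peaks of protein-coding genes, and on Illumina 12 were higher and 7 lower, against 22.5% and 45.8%. The median log2 fold change was 0.55 and 0.50, beside -0.18 and -0.18 over all promoters.

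None of the 4 regulators upstream of Esrrb was called higher. These are Tcf7l1, its repressor, Gsk3b and Ctnnb1 of the Wnt pathway, and Stat3, the effector of LIF signalling. On BGI 3 were lower and 1 did not pass, and on Illumina all 4 were lower, by log2 fold changes of -0.62 to -0.34. Tcf7l1 was at -0.13 ± 0.10 SE on BGI (edgeR adjusted p = 0.20) and -0.48 ± 0.08 SE on Illumina (edgeR adjusted p = 2.0e-05), but the peaks that represented it started 328 bp apart in the 2 sets. These small changes depended on the scaling: at the down-sampled depths, which raised the median of all peaks by 0.14 on BGI and 0.13 on Illumina, Stat3 on BGI (-0.20) and Gsk3b on Illumina (-0.22) no longer passed, and Tcf7l1 on BGI stood at 0.01.

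Of 7 partners, 6 rose on each platform. Nanog, whose protein activates Esrrb, went from 1.03 ± 0.53 to 22.8 ± 4.23 CPM on BGI (SD, n = 3, log2 fold change 4.46 ± 0.25 SE). The rise was 2.14 ± 0.15 SE at Pou5f1, which encodes OCT4, and 2.21 ± 0.15 SE at Sox2. Ncoa3, a coactivator of ESRRB, rose by 0.82 ± 0.13 SE from a promoter already open in MEFs at 19.4 ± 2.83 CPM. Kdm1a did not pass (-0.05 ± 0.12 SE, edgeR adjusted p = 0.73) and was at 0.10 at the down-sampled depths.

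Of 10 further genes of the naive network, 7 rose and 2 fell on BGI, and 6 rose and 2 fell on Illumina. Tfcp2l1, a factor that like Esrrb maintains naive cells, rose by 1.66 ± 0.16 SE on BGI. Klf4, a reprogramming factor also active in fibroblasts, fell by 0.27 ± 0.12 SE on BGI (edgeR adjusted p = 0.0493), a call that was lost on BGI with DESeq2 and RLE factors and on both platforms at the down-sampled depths (-0.13 and -0.16). Nr5a2, a nuclear receptor that can replace OCT4 in reprogramming, rose by 1.80 ± 0.16 SE on BGI and by 0.54 ± 0.13 SE on Illumina, with its representing peaks 312 bp apart. For the 21 genes whose peaks coincided, the fold changes of the platforms differed by at most 0.54. Of the paralogs, Esrrg, a related receptor, fell by 1.11 ± 0.20 SE on BGI. Esrra, the broadly expressed one, was at -0.08 ± 0.10 SE (edgeR adjusted p = 0.43) and at 0.06 at the down-sampled depths. The +143.3 kb Esrrb peak, at the start of the processed transcript and at 6.12 ± 0.24 SE on BGI, had a larger fold change than any of these 23 promoters, of which Zfp42 was highest at 5.38 ± 0.16 SE. The Esrrb peaks at coding starts were below Zfp42, at -0.07 (+60.5 kb), 4.23 (+109.0 kb) and 5.12 (+110.0 kb). Kdm1a, Zfp42, Stat3 and Gsk3b were named after their values were seen.

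**Figure D5:**
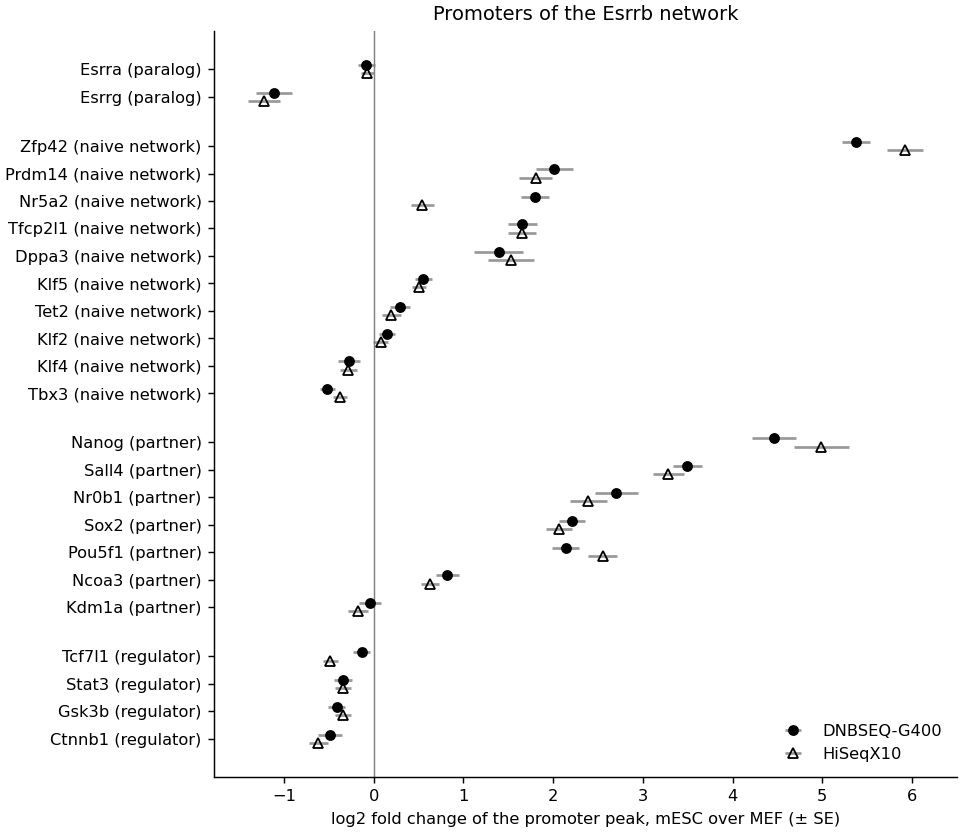
Log2 fold change of mESC over MEF (± SE) at the promoter peaks of 23 genes tied to Esrrb, grouped by role, on DNBSEQ-G400 (filled circles) and HiSeqX10 (open triangles). Zfp42 and Nanog are farthest to the right, the 4 upstream regulators lie left of 0 (Tcf7l1 on BGI turned to 0.01 at the down-sampled depths), and Esrrg is farthest to the left.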

How the data were processed

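Omni-ATAC-seq counts of 12 samples in 4 groups of 3 (MEF and mESC, each on BGI and Illumina) were analysed. The authors aligned reads to GRCm38 with Bowtie2, removed duplicates, down-sampled samples to 1 depth per cell type (lower for mESCs) and called summits per sample with MACS2. The deposited count tables hold raw read counts per 502 bp peak; the deposited peak calls hold a score, a fold enrichment ratio, and −log10 p and q per summit. Reproducible lists required a scaled score of at least 3 in at least 2 samples, per the study's methods. Columns without a platform name were taken as Illumina. This was checked: the BGI to Illumina ratio of counts followed that of summit enrichment (Spearman rho 0.76 to 0.79 in 6 libraries). No 2 samples held identical counts.

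Counts were fitted on whole tables with edgeR 4.0.16 (quasi-likelihood test, TMM, filterByExpr, Benjamini-Hochberg adjustment), and tested on simulated data. DESeq2 1.42.0 was the alternative. SE is the log2 fold change over the root of F. Alternatives were other scalings, filters, peak sets, promoter windows, a fold minimum, blocks and leaving out each library. Exact permutation tests were computed for summed values, shares and summits, and are given only for the summits, which do not depend on the peak lists. Library numbers pair the platforms: they are the same library, and same-numbered samples deviated together (r = 0.51 to 0.84, others -0.68 to 0.30). Annotation was GENCODE vM21, an earlier release than the study's, and RefSeq; start sites, and with them promoter classes and shares, may differ between releases. Named peaks were promoter peaks, the 6 other peaks highest in mESCs, peaks with a negative fold change, extremes, and calls made on 1 platform; named network genes were 10 fixed genes. The members and gene lists were chosen with earlier results of these data known. Peaks on chromosome Y were excluded by the authors.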

Additional observations from a re-analysis of the deposited data

How the results depend on the processing

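The counts of Esrrb peaks higher in mESCs ranged from 21 to 26 over the alternatives on both platforms, and the summed CPM and the summit counts kept their direction. Leaving out single libraries gave 24 to 25 higher on BGI and 26 on Illumina, with 0 lower on BGI and 0 to 2 on Illumina; summed log2 differences of 2.32 to 2.42 on BGI and 2.30 to 2.39 on Illumina; 111 to 114 more summits (with all libraries, 42.7 more as distinct intervals); and 12 to 13 network promoters higher on both platforms, with 5 to 6 lower on BGI and 7 to 9 on Illumina. The 2 lower Illumina peaks, +37.9 (-0.65) and +60.5 kb (-0.41), appeared without mESC library 1, and the +60.5 kb peak alone, 1 lower peak, without MEF library 2 (-0.41). With the replicate block the mESC platform comparison gave 3 differing peaks, and adding a GC offset to that fit gave 4, of which +109.0 and +163.9 kb were among the 3, +37.9 kb was lost and +110.0 and +143.3 kb were gained; the block changed no other call. In the fits without the block, leaving out a library gave 0 platform differences and 0 interactions; the blocked fits were not repeated that way.

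The promoter share was not stable. Its difference on BGI turned to -1.77 percentage points with a 500 bp promoter window, and on Illumina to 1.96 on the BGI peak set and 0.46 with a 2 kb window, while it reached 5.29 on BGI at 2 kb and -5.20 on Illumina at 500 bp; leaving out single libraries spread it over 1.52 to 3.33 (BGI) and -1.91 to 0.0744 (Illumina, where it was 0.0365 without MEF library 1 and highest without mESC library 1). The +37.9 and +60.5 kb peaks, near 0 on BGI, changed sign. The +37.9 kb peak was at 0.0372 by DESeq2, 0.0365 with RLE factors, 0.132 at the down-sampled depths and -0.23 to 0.23 without single libraries (0.0927, 0.0953 and 0.234 without MEF 1, MEF 2 and mESC 3), and the +60.5 kb peak at 0.0729 at the down-sampled depths and -0.18 to 0.0616 without single libraries (0.0425 without MEF 1 and the highest without mESC 3). The cause was not tested. Down-sampled depths moved the median of all peaks by 0.14 on BGI and 0.13 on Illumina. Against a log2 fold change of at least 1, 21 of 27 and 22 of 29 peaks passed. MEF levels at the mESC peaks rest on 4 to 53 reads per library on BGI and as few as 0 on Illumina, which limits the precision of the larger folds.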

Other observations

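The 3 mESC libraries differed from each other along the locus in a way that was read again on the other sequencer. Of 26 members matched between platforms, 20 had the same highest mESC library on both and 15 the same lowest one. Library 1 was highest on both at 10 members and library 5 at 2. Library 3 was highest on both at 8 members, among them the +109.0, +110.0 and +143.3 kb promoters and the +137.8 and +140.8 kb intronic peaks, and lowest on both at 2, the +37.9 and +139.5 kb peaks. At the +139.5 kb peak it had 96 reads on BGI, where libraries 1 and 5 had 154 and 159, and 95 on Illumina beside 167 and 171. Library 5 was lowest on both at 9 members. Both platforms read the same DNA, so the values describe the libraries and carry no test. The same counts over all peaks are not given here. Over all mESC peaks, samples of the same library deviated together (r = 0.51 to 0.72), so these counts do not set the locus apart.

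Weak summits within 1 kb of the first annotated TSS were called in 5 of 6 MEF samples and in 6 of 6 mESC samples, although neither peak set kept a peak there. In MEFs −log10 p was 2.80 to 4.63 where a summit was called, and in mESCs it was 5.11 to 11.99, highest in library 3 on both platforms.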
